A study of Homo sapiens with 10 samples.

Results

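The genes described here are 10 members of the tumour necrosis factor (TNF) system: the receptors CD40, FAS, TNFRSF1B and TNFRSF10B, the ligands CD70 and LTB, and the adaptors TRAF1, TRAF2, TRAF3 and TRAF5. Every probe set whose platform annotation named 1 of these genes and no other was taken, which gave 18 probe sets for 9 genes out of 12558 probe sets and 8226 genes on the array. No probe set was named for TRAF2 in the annotation used, and TRAF2 expression was not analysed here. Expression was measured in ST486, a line of human Burkitt's lymphoma B cells, on 1-colour Affymetrix HG-U95Av2 arrays. In the STK38 shRNA group (5 arrays) the cells had carried a lentiviral short hairpin RNA against the kinase STK38, Sigma clone TRCN0000010215, for 60 h. In the control group (5 arrays) they had carried the non-target control shRNA Sigma SHC002 for the same 60 h. Both groups thus share the cell line, the lentiviral transduction and the time, and a single hairpin stands for the loss of STK38. The labels do not say whether replicates were separate cultures, so the p-values speak for the variation among these 10 arrays, and that variation may be technical.

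Ligands of the TNF family bind receptors on the same or a neighbouring cell. Receptors with a death domain, such as FAS and TNFRSF10B, can recruit FADD and caspases, while receptors without one, such as CD40, TNFRSF1B and CD27, recruit TRAF adaptors, which lead to the canonical and the alternative NF-kappaB pathway. In B cells CD40 receives help from T cells, CD70 on activated B cells engages CD27, and lymphotoxin beta, encoded by LTB, anchors the lymphotoxin heterotrimer to the cell surface.

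Arrays of the same group resembled each other, with 1 exception. STK38 shRNA replicate 4 had a mean correlation of 0.982 with the other arrays of its group, where the remaining 9 arrays had 0.992 to 0.996 with theirs, so results that rest on it are given with and without it. STK38 mRNA was 4.56-fold lower with the STK38 shRNA at its brightest probe set (log2 difference -2.19, SE 0.14), and its other probe sets had differences of -1.16 and -0.82 (2.23-fold and 1.76-fold lower). Of 10 B cell marker genes 7 exceeded the array background on some array. Of the 7 tested, CD79A was called higher (log2 difference 0.49, adjusted p = 0.000689), BLNK lower (-0.77, adjusted p = 1.18e-05), and the median was -0.19; the B cell surface marker MS4A1 had a mean of 8.69 in both groups. Of 14 T and NK cell marker genes, 3 (CD247, TRBC1 and PRF1) exceeded the array background on any array, and the T cell markers CD3D, CD3E, CD3G and CD2 on none. Summed on the linear scale over the 14 genes, these markers lay between 232 and 284 in the STK38 shRNA arrays and between 326 and 404 in the controls. TRBC1 alone made up 193 to 244 and 284 to 363 of these sums, and the other 13 genes 38.9 to 42.6 and 41.0 to 43.5. The other TRBC1 probe set had a log2 difference of -0.033. Of 10 monocyte and macrophage markers, S100A8, S100A9 and ITGAM exceeded background on any array, with linear sums of 36.5 to 52.6 against 38.3 to 40.8, and 0 of the 4 tested were called by limma (0 also at an unadjusted p under 0.05). All of these detected markers were highest on STK38 shRNA replicate 4. ITGAM exceeded background there alone, at a log2 level of 3.49 beside 2.18 to 2.38 on the other arrays of its group. The array background is the 90th percentile of 23 control probe sets on each array, a log2 level of 2.36 to 2.66. In bulk samples such as these, fewer cells with a transcript and less transcript per cell cannot be told apart.

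CD70 was the member gene that was called. Its mRNA was higher on every STK38 shRNA array than on every control array and rose 1.89-fold. Of the 5 member genes that passed the filter on low values and were tested, CD70 was called higher by limma and 0 were called lower (2 and 0 at an unadjusted p under 0.05). The share of all genes at the unadjusted threshold was not counted, so counts at it have no share to stand beside. Of the 5403 genes tested over the whole array, 31.0% were called, 15.2% higher and 15.8% lower. Among the 9 member probe sets tested, that of CD70 was the 1 called, beside 29.9% of the 7535 probe sets tested (14.1% higher and 15.8% lower). It was also the 1 of these 9 at which the groups of arrays did not overlap, as was the case at 22.1% of the 7535 (9.33% higher and 12.8% lower). A count of 1 in 5 is too small to set apart from the array's share, and with array weights or the mean of a gene's probe sets it was 2. The other 4 tested genes, CD40, FAS, TRAF3 and TRAF5, missed the threshold, and TNFRSF1B, TNFRSF10B, TRAF1 and LTB fell under the filter. Only CD70 and TRAF5 were above background on all 10 arrays.

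**Figure D1:**
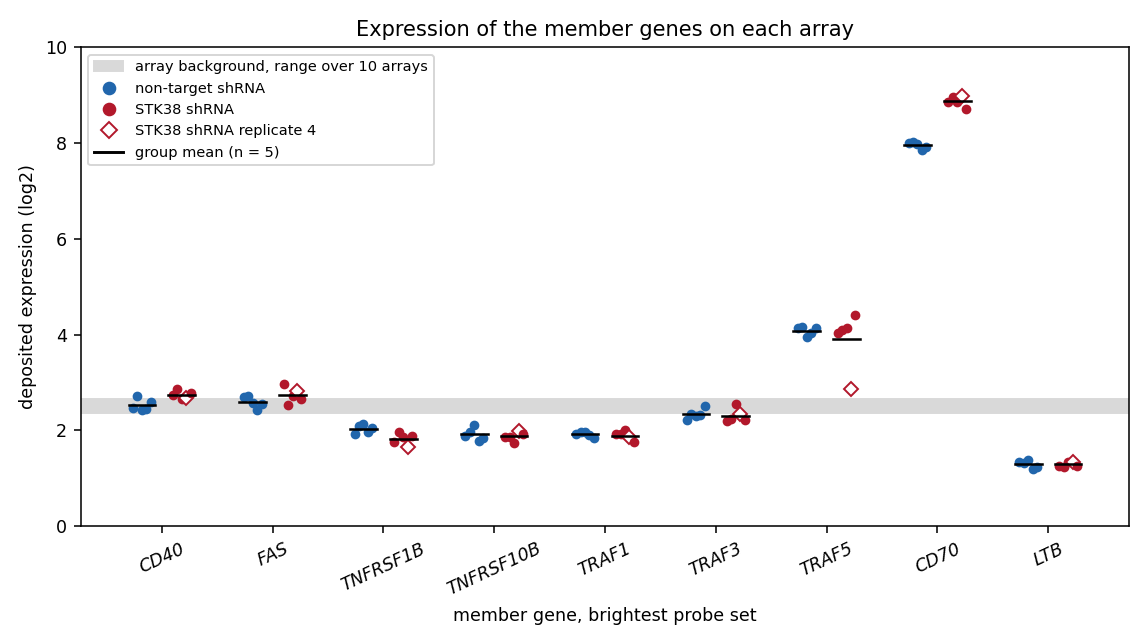
Deposited log2 expression of the 9 measured member genes at their brightest probe set (y axis), with a point for each of the 5 non-target shRNA arrays (blue) and 5 STK38 shRNA arrays (red, replicate 4 as an open diamond); black lines are group means and the grey band is the range of the array background, 2.36 to 2.66. CD70 is higher on all STK38 shRNA arrays, TRAF5 is low on replicate 4 alone, and the other genes lie near or under the background; levels of different genes come from different probes and are not comparable.

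CD70 encodes the membrane ligand of CD27. Its single probe set, 34054_at, had log2 levels of 8.01, 8.03, 7.97, 7.86 and 7.91 on the control arrays, in the order of their replicate numbers. On the STK38 shRNA arrays the levels were 8.87, 8.97, 8.87, 8.98 and 8.70. The lowest STK38 shRNA array thus stood above the highest control array. The means were 8.88 ± 0.11 against 7.96 ± 0.070 (log2 level, SD, n = 5 each), a log2 difference of 0.92 (SE 0.071, 95% interval 0.77 to 1.07, limma adjusted p = 2.90e-07). The two-sided exact permutation test gave 0.00794, the smallest value that 5 against 5 arrays allow. STK38 shRNA replicate 4 had the highest CD70 level of its group, and without it the difference was 0.89 (adjusted p = 1.12e-07). CD70 ranked 116th by size among the 822 genes called higher.

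CD27, the receptor of CD70, stood at the edge of detection. Its log2 levels were 2.33, 2.42, 2.73, 2.31 and 2.49 on the control arrays and 2.29, 2.16, 2.22, 2.24 and 2.08 on the STK38 shRNA arrays, of which 1 control array and 0 STK38 shRNA arrays exceeded background. The groups did not overlap, and the log2 difference of -0.26 (SE 0.095) had an adjusted p of 0.0526. It passed the threshold without STK38 shRNA replicate 4 (adjusted p = 0.0305), without non-target shRNA replicate 1 (0.0483) and without non-target shRNA replicate 4 (0.0473). With all arrays it also passed under array weights (0.0171), quantile normalization (0.0360) and centring of arrays on their medians (0.0442). Over all alternatives its adjusted p ran from 0.0171 to 0.140.

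LTB, the other ligand among the members, gave no signal. Its probe set 40729_s_at had log2 levels of 1.19 to 1.37 on the control arrays and 1.23 to 1.34 on the STK38 shRNA arrays, 0 of 10 above background. The groups overlapped throughout, with a log2 difference of -0.0065 (95% interval -0.12 to 0.11 in the fit without a filter, adjusted p = 0.972). Other ligands of the family are encoded beside LTB in the lymphotoxin locus. Of these, TNF had means of 1.55 and 1.58 with and without the STK38 shRNA at its brighter probe set, and LTA had 2.27 ± 0.25 and 2.19 ± 0.087, above background on 1 STK38 shRNA array and 0 control arrays. The STK38 shRNA minus control difference of LTA was 0.084 with all arrays and -0.020 without STK38 shRNA replicate 4.

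The sequence before the LTB start is shown because LTB is a classical NF-kappaB target whose transcript was not detected here. It is the 250 bases before the most upstream annotated start, GRCh38.p14 chr6:31582426-31582675, minus strand, from RefSeq, 5′ to 3′ on the gene's strand, with the match to the kappaB motif in capitals.

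LTB: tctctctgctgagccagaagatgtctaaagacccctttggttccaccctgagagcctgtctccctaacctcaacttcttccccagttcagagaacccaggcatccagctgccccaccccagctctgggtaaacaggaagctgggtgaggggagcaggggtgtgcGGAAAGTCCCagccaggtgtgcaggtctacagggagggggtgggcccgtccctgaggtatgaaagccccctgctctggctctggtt

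That match, GGAAAGTCCC, begins 86 bases before the start. The kappaB motif, the binding site of NF-kappaB dimers, was searched on both strands and was present in 9.96% of 35116 RefSeq windows of 250 bases. Of the 14 windows of member genes (7 genes, TRAF2 among them), 4 held it. These were the 2 overlapping windows of LTB, the window of TRAF3 and 1 of 3 windows of FAS. A match is a description of the sequence, and binding was not measured.

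CD40, the receptor for T cell help, lay at the array background. Both of its probe sets had the higher mean with the STK38 shRNA, and neither was called. At probe set 35149_at the control arrays had log2 levels of 2.47, 2.36, 2.71, 2.24 and 2.43, and the STK38 shRNA arrays 3.01, 2.60, 2.78, 2.61 and 2.71. At 35150_at, the brighter one by mean, the controls had 2.46, 2.73, 2.42, 2.44 and 2.59 and the STK38 shRNA arrays 2.73, 2.86, 2.65, 2.67 and 2.77. The groups overlapped at both probe sets, through non-target shRNA replicate 3 at the former and replicate 2 at the latter. Of the STK38 shRNA arrays 4 and 5, respectively, exceeded background, and of the control arrays 2 at each probe set. The log2 differences were 0.30 (SE 0.11, 95% interval 0.059 to 0.54, adjusted p = 0.0591) and 0.21 (SE 0.096, interval 0.0031 to 0.42, adjusted p = 0.126), each with an exact permutation p of 0.0317, two-sided. Probe set 35149_at passed the threshold without STK38 shRNA replicate 4 (difference 0.33, adjusted p = 0.0209) and without non-target shRNA replicate 3 (0.37, adjusted p = 0.0271). With the mean of both probe sets in place of the brighter one, CD40 was called, with a difference of 0.26 and an adjusted p of 0.0227. Over all alternatives the adjusted p ran from 0.0209 to 0.160 at 35149_at and from 0.0287 to 0.253 at 35150_at.

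**Figure D2:**
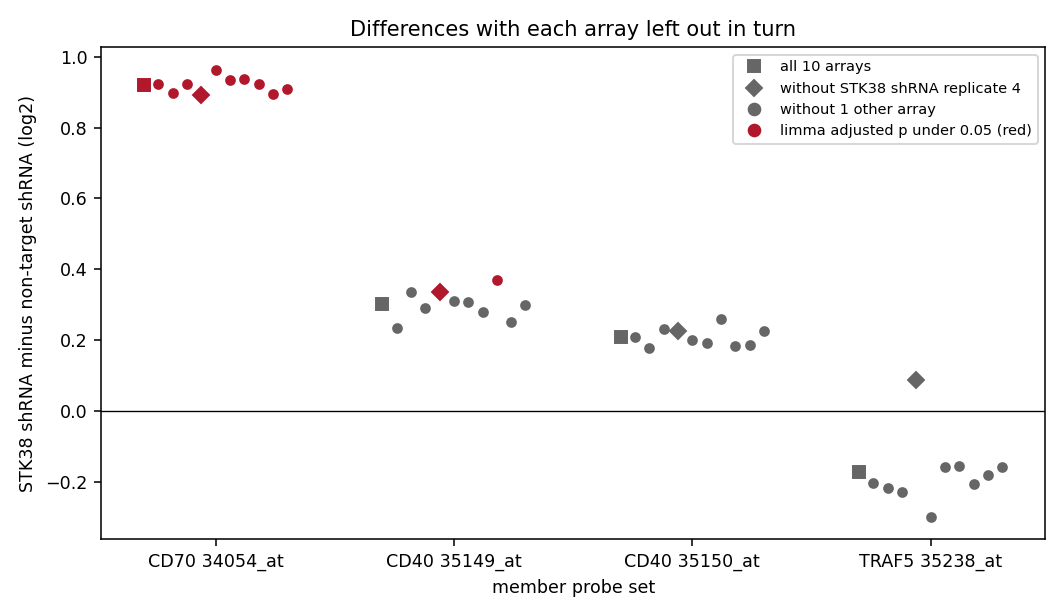
STK38 shRNA minus non-target shRNA difference (y axis, log2) of CD70, both CD40 probe sets and the brighter TRAF5 probe set with all 10 arrays (square), without STK38 shRNA replicate 4 (diamond) and without each other array (circles); red marks a limma adjusted p under 0.05. CD70 stays between 0.89 and 0.96 and is called each time, CD40 35149_at is called with 2 of the arrays left out, and TRAF5 35238_at goes from -0.17 to 0.088 without STK38 shRNA replicate 4.

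FAS, the death receptor CD95, had 6 probe sets, of which 1 exceeded background. This one, 1808_s_at, had log2 levels of 2.69, 2.73, 2.57, 2.43 and 2.56 on the control arrays and 2.97, 2.53, 2.71, 2.83 and 2.65 on the STK38 shRNA arrays, above background on 3 and 5 arrays respectively. The groups overlapped, and the log2 difference was 0.14 (SE 0.11, 95% interval -0.087 to 0.37, adjusted p = 0.381). The other 5 probe sets lay under background on every array, with differences between -0.11 and 0.011. One of them, 389_s_at, did not overlap between the groups (exact permutation p = 0.00794). Its means of 1.15 with and 1.25 without the STK38 shRNA are far under background, and its adjusted p in the fit without a filter was 0.152.

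TNFRSF1B and TNFRSF10B were not above background on any array. TNFRSF1B encodes TNFR2, the TNF receptor without a death domain, and its brighter probe set 33813_at had log2 levels of 1.92, 2.10, 2.13, 1.96 and 2.05 on the control arrays and 1.75, 1.96, 1.86, 1.64 and 1.88 on the STK38 shRNA arrays. These ranges meet at 1.92 to 1.96, and the difference of -0.21 had an adjusted p of 0.0850 in the fit without a filter (exact permutation p = 0.0159). The other TNFRSF1B probe set had means of 1.20 and 1.24. TNFRSF10B, the TRAIL receptor DR5, had log2 levels of 1.77 to 2.11 on the control arrays and 1.74 to 1.98 on the STK38 shRNA arrays, with a difference of -0.037 (95% interval -0.21 to 0.13, adjusted p = 0.872 without a filter). No fold is given for either gene.

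**Figure D3:**
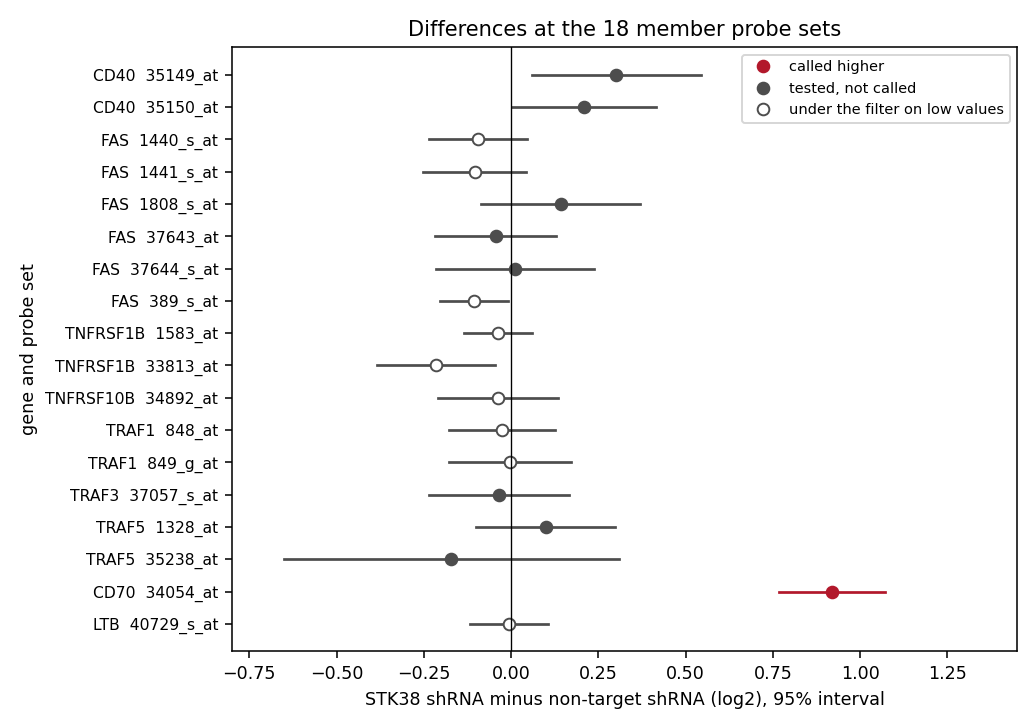
STK38 shRNA minus non-target shRNA difference (x axis, log2) with its 95% interval at each of the 18 member probe sets (y axis); filled points were tested, open points fell under the filter on low values and come from the fit without it, and red marks the call. The interval of CD70, 0.77 to 1.07, stands apart from the other intervals, and that of TRAF5 35238_at, -0.65 to 0.31, is the widest.

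TRAF5, an adaptor of CD40, CD27 and the lymphotoxin beta receptor, was the adaptor with a clear signal. Its brighter probe set 35238_at had log2 levels of 4.14, 4.15, 3.95, 4.04 and 4.13 on the control arrays and 4.04, 4.09, 4.14, 2.87 and 4.42 on the STK38 shRNA arrays. Replicate 4 of the STK38 shRNA group alone lay far under the rest. The difference was -0.17 (SE 0.22, 95% interval -0.65 to 0.31, adjusted p = 0.645) with all arrays and 0.088 (SE 0.11, interval -0.15 to 0.32, adjusted p = 0.583) without that array. The dimmer TRAF5 probe set, 1328_at, was under background on all arrays and had a difference of 0.099 (adjusted p = 0.498).

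The sequence before the TRAF5 start is shown because the series' title is about MYC activity and this window holds the E-box CACGTG, the site of MYC and MAX dimers. It is the 250 bases before the most upstream annotated start, GRCh38.p14 chr1:211326385-211326634, plus strand, from RefSeq, 5′ to 3′, with the E-box in capitals.

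TRAF5: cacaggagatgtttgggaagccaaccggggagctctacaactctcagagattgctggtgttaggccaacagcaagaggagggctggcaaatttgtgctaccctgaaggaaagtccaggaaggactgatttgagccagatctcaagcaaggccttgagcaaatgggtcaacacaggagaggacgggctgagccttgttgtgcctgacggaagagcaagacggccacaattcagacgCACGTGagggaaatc

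The E-box begins 15 bases before this start. CACGTG reads the same on both strands and was present in 6.34% of the 35116 windows. Among the member genes with a window TRAF5 was the 1 that held it, in 2 overlapping windows of the 14. Windows of CD40, CD70 and TNFRSF10B were not used here.

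TRAF3 and TRAF1 lay at or under background. TRAF3, which holds the NF-kappaB-inducing kinase MAP3K14 in check in resting B cells, had log2 levels of 2.21, 2.35, 2.31, 2.33 and 2.52 on the control arrays and 2.20, 2.24, 2.54, 2.35 and 2.21 on the STK38 shRNA arrays. Only 1 of these 10 arrays, STK38 shRNA replicate 3, exceeded background, and the difference was -0.034 (95% interval -0.23 to 0.17, adjusted p = 0.840). TRAF1, an adaptor induced by NF-kappaB, was not above background on any array at either probe set. Its log2 means were 1.89 and 1.92 at 848_at and 1.80 and 1.80 at 849_g_at with and without the STK38 shRNA, and the 95% interval of the difference at 848_at was -0.18 to 0.13.

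The other genes of the system were described from 6 lists compiled by hand. Of their 94 genes on the array, 73 were tested, 12 rose and 9 fell, beside 822 and 852 of 5403 genes overall. The median log2 difference over these 73 genes was 0.028, against 0.019 over all genes tested.

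TNFSF9, the ligand 4-1BBL, was the 1 of 5 tested other ligands that was called, higher, and its rise was larger than that of CD70. Its log2 levels were 5.08, 5.32, 5.67, 5.31 and 5.58 on the control arrays and 6.56, 7.05, 6.76, 6.75 and 6.98 on the STK38 shRNA arrays. The groups were well apart, and TNFSF9 rose 2.69-fold (log2 difference 1.43, SE 0.13, adjusted p = 1.43e-06), the 20th by size among the genes called higher. Its receptor TNFRSF9 was under background on all arrays, with a difference of -0.060 (adjusted p = 0.759). The median difference of the 5 tested ligands was 0.062.

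Among 11 tested other receptors 1 was called lower and 0 higher by limma (2 and 0 at an unadjusted p under 0.05), with a median difference of -0.020. Over all alternatives 1 to 2 receptors of this list were called. TNFRSF14 fell under the filter on low values and was under background on all arrays. In the fit without a filter it had a difference of 0.33 (limma adjusted p = 0.0230). TNFRSF17, the receptor BCMA of plasma cells, had log2 levels of 6.24, 6.36, 6.33, 6.08 and 6.61 on the control arrays and 4.75, 4.67, 4.63, 3.21 and 4.76 on the STK38 shRNA arrays. The groups were far apart. TNFRSF17 fell 3.79-fold, a log2 difference of -1.92 with an SE of 0.25 (adjusted p = 3.57e-05), and -1.62 without STK38 shRNA replicate 4, its lowest array. TNFRSF13B, the related receptor TACI, had a difference of -0.23 (95% interval -0.70 to 0.23, adjusted p = 0.494), and of -0.036 without STK38 shRNA replicate 4, its lowest array. The receptor of TNF, TNFRSF1A, and that of the lymphotoxin heterotrimer, LTBR, had differences of -0.053 and 0.11 (adjusted p = 0.829 and 0.646). Both changed sign without STK38 shRNA replicate 4, to 0.093 and -0.041.

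The TRAF family and TRAF-binding list had 10 tested genes, 1 higher and 2 lower, with a median of -0.046. TRAF4, a TRAF with roles outside TNF receptor signalling, rose 1.58-fold (log2 difference 0.66, SE 0.20, adjusted p = 0.0227), from levels of 3.80 to 4.56 to levels of 4.30 to 5.50, and the groups overlapped. It was not called without STK38 shRNA replicate 1 (adjusted p = 0.0623), without STK38 shRNA replicate 3 (0.0637) or without non-target shRNA replicate 5 (0.0638). USP7, a deubiquitinase, fell 2.91-fold (adjusted p = 8.90e-06), and SIAH2, a ubiquitin ligase of TRAF2, fell 1.38-fold (adjusted p = 0.000510). TRAF6, which serves CD40 and Toll-like receptors, and TANK, a TRAF-binding adaptor, were under background on all arrays.

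Genes of the receptor-proximal machinery changed in both directions, 5 higher and 3 lower of 25, with a median of 0.088. PEA15, a death effector domain protein, rose from 3.70 ± 0.15 to 5.09 ± 0.26 (log2 level, SD, n = 5 each), or 2.62-fold (log2 difference 1.39, SE 0.14, adjusted p = 3.68e-06). CHUK, the kinase IKK-alpha of the alternative NF-kappaB pathway, rose 1.80-fold from 6.41 ± 0.12 to 7.26 ± 0.080, with no overlap (adjusted p = 4.47e-06). BIRC2, the ubiquitin ligase cIAP1 that TRAF2 recruits, rose 1.39-fold (adjusted p = 0.00555). CASP8 and CASP10, the initiator caspases of death receptors, were called higher as well, CASP8 by 0.46 (adjusted p = 0.0226) and CASP10 by at least 1.22-fold (adjusted p = 0.0183). Both lay near the threshold. CASP8 was not called without STK38 shRNA replicates 1, 3 or 5 or non-target shRNA replicates 2, 4 or 5, each left out alone (adjusted p = 0.0511 to 0.0614), nor CASP10 without STK38 shRNA replicates 3 or 5 or non-target shRNA replicate 2 (0.0504 to 0.0525). Over all arrays left out in turn the CASP8 difference stayed between 0.42 and 0.59, and without STK38 shRNA replicate 4 both calls had the lower adjusted p of 0.000307 (CASP8) and 0.00180 (CASP10). CASP10 had 4 and CASP8 3 probe sets, and 1 of each was called.

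The 3 genes of this list that fell were RBCK1, TNFAIP3 and TNIP1. RBCK1, the HOIL-1 subunit of the linear ubiquitin ligase complex, fell 1.68-fold at its brighter probe set (log2 difference -0.75, adjusted p = 0.000125) and had -0.067 at the other. TNFAIP3, the inhibitor A20, fell 1.44-fold (log2 difference -0.53, SE 0.16, adjusted p = 0.0185) and was above background on all control arrays and 3 STK38 shRNA arrays; it was not called without non-target shRNA replicate 1 (adjusted p = 0.0505) or replicate 4 (0.0548). TNIP1, an A20-binding inhibitor, had a difference of -0.36 at its brighter probe set (adjusted p = 0.0232) and of -0.22 at the other, which was not called (adjusted p = 0.221). MAP3K14, the kinase held by TRAF3, was not above background on any array. Without non-target shRNA replicate 2 the list held 5 calls in place of 8.

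**Figure D4:**
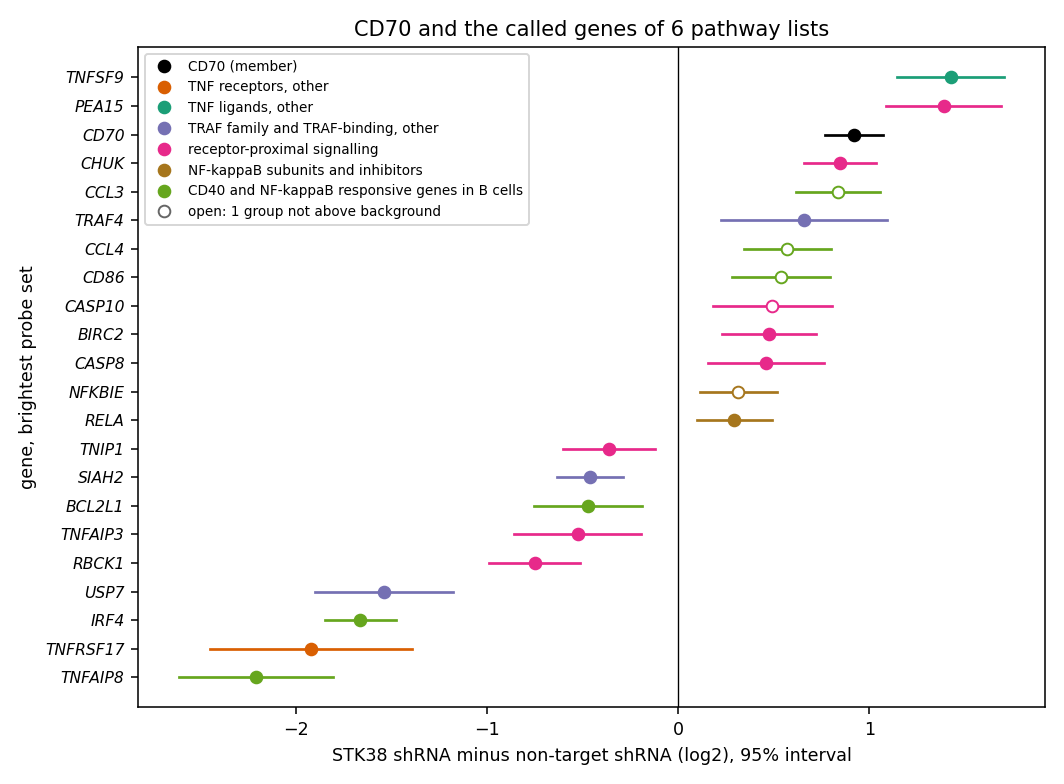
STK38 shRNA minus non-target shRNA difference (x axis, log2) with its 95% interval for CD70 (black) and the 21 called genes of the 6 lists (y axis, brightest probe set, coloured by list); open points mark genes with 1 group not above background on any array, whose size is uncertain. Of the list genes 12 lie to the right and 9 to the left of 0, from TNFSF9 at 1.43 to TNFAIP8 at -2.21.

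NF-kappaB subunits and inhibitors, on which TRAF signalling converges, were mostly not called, like the tested genes as a whole, of which 31.0% were. Of 8 tested genes 2 were called higher and 0 lower by limma (likewise 2 and 0 at an unadjusted p under 0.05), with a median of -0.034. Without STK38 shRNA replicate 4 the list had 3 calls, and without STK38 shRNA replicates 1 or 2 or non-target shRNA replicate 5, each left out alone, it had 1. RELA, the transactivating subunit p65, rose 1.23-fold at its brightest probe set (levels of 6.39 to 6.53 against 6.60 to 6.97, adjusted p = 0.0232), and its other 3 probe sets had differences of 0.17 to 0.24 with no call. RELA was not called without STK38 shRNA replicate 1 (adjusted p = 0.0573) or without the filter (0.0516). NFKBIE, the inhibitor IkappaB-epsilon, was called higher (adjusted p = 0.0183), with 2 STK38 shRNA arrays and 0 control arrays above background, so no size is given; this call was lost without STK38 shRNA replicate 2 (0.0507) and without non-target shRNA replicate 5 (0.0526). NFKB1, NFKB2 and NFKBIA had differences of -0.040, -0.028 and -0.071 and RELB of 0.22 (adjusted p = 0.187, and 0.0208 without STK38 shRNA replicate 4). REL had -0.20 (adjusted p = 0.183) at its brightest probe set and was called lower at 41572_r_at, which was under background on all arrays.

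Genes that CD40 and NF-kappaB are known to induce in B cells gave 3 rises and 3 falls among 14 tested, with a median of 0.066. The chemokine genes CCL3 and CCL4 were called higher (adjusted p = 2.52e-05 and 0.000830) but exceeded background on 4 and 2 STK38 shRNA arrays and on 0 control arrays, so that CCL3 was at least 1.12-fold higher and no size is given for CCL4. CD86, a costimulatory ligand, was at least 1.06-fold higher. TNFAIP8, a TNF-inducible gene, fell 4.62-fold (adjusted p = 7.16e-07) and IRF4, the plasma cell regulator, fell 3.17-fold (adjusted p = 6.44e-09). BCL2L1, which encodes the survival protein BCL-XL, had a difference of -0.47 at its brighter probe set (adjusted p = 0.0134) and of -0.74 at the other (adjusted p = 0.00126). Beside these results, of 3 tested T and NK cell genes TRBC1 was called lower (log2 difference -0.52) and so was CD247, which exceeded background on 1 control array and 0 STK38 shRNA arrays, so no size is given. Their part in these results was not tested.

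By their pattern over the 10 arrays, the genes most like CD70 were CHMP1A (Pearson r = 0.994), PSAP (0.987) and FNDC3A (0.987). CHMP1A, a subunit of the ESCRT-III membrane remodelling complex, had log2 levels of 6.93 and 5.99 with and without the STK38 shRNA. PSAP encodes the precursor of the lysosomal saposins. The arrays form 2 groups, so r mostly reflects the difference that these genes share, and it is given as a description of 10 points.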

How the data were processed

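Total RNA (5 ug per array) was hybridised to HG-U95Av2 arrays, and the deposited log2 expression values hold 1 value per probe set and array. Per the submitters' processing notes they were made with GCRMA and affy (versions not given in the sources used here). That they are log2 values was taken from their span, 0.35 to 12.65. GCRMA shrinks differences of dim probe sets. The authors' normalization was kept.

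Gene names are those of the platform annotation, updated through Entrez identifiers to RefSeq (GRCh38.p14). Of 12558 probe sets without the 67 controls, 10943 had 1 gene, 545 several and 1070 none. Probe sets whose mean over the 10 arrays lay below the 40th percentile, 1.93, were not tested. The other 7535 were compared with limma 3.58.1 in R 4.3.3 (lmFit, eBayes with trend, 8 residual degrees of freedom), adjusted by Benjamini-Hochberg over all of them, threshold 0.05; this adjusted p is the one given unless a fit without the filter is named. The procedure was tested on simulated normal values, drawn independently for each probe set with its observed spread within groups. That test does not cover correlation between probe sets or an outlying array. Exact permutation tests are two-sided over 252 splits and unadjusted; 18 member probe sets were tested so. A gene is represented by its probe set with the highest mean. A bound ("at least") compares the brighter group's mean with the dim group's mean after each dim array was raised to its background where it lay lower. Figures were drawn with matplotlib 3.10.9.

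Members, lists and tests were chosen with earlier results of these data known. The rule named all members; up to 4 called genes per pathway list, largest first; up to 2 called genes per list of another cell type; a fixed set of receptors, ligands and NF-kappaB genes; and the 3 genes most like the member with the largest called change. TNFRSF9, TNFRSF13B, TNFRSF14, CASP8, CASP10, TNIP1, CD86 and BCL2L1 were chosen after their values were seen. So were MS4A1 and the marker genes named for their detection. BIRC3 was not analysed here.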

Additional observations from a re-analysis of the deposited data

Results flagged for a closer look

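In groups of 5 arrays, a sample was singled out when its gap to the nearest other array exceeded Dixon's critical share of the group's range, which chance does in about 1 of 20 groups. Among 53 of the probe sets named, or 106 groups, 9 held such an array, and in 7 of these it was STK38 shRNA replicate 4. On that array TRAF5 (35238_at) had a log2 level of 2.87, where the other 4 had 4.04 to 4.42. TNFRSF17 had 3.21 beside 4.63 to 4.76, CASP8 5.23 beside 5.76 to 5.91, TNFRSF1A 1.77 beside 2.38 to 2.59, REL 2.08 beside 2.43 to 2.55 and STK38 itself 2.46 beside 2.88 to 2.95. LTBR was high there, 3.29 beside 2.41 to 2.59. In the control group FAS (1441_s_at), under background throughout, had 2.01 on replicate 4 beside 1.94 to 1.96, and NFKB1 had 6.04 on replicate 5 beside 5.82 to 5.88.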

How the results depend on the processing

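CD70 was called higher in all 17 alternatives run, with log2 differences of 0.89 to 0.98. The 1 member gene called became 2 with array weights and with the mean of a gene's probe sets, CD40 being the addition. Called member probe sets, 1 with all arrays, were 2 when probe sets had to exceed background on 5 or more arrays, 3 with array weights and 1 to 2 with single arrays left out. Across the array the background rule called 2149 of 5323 probe sets and array weights 2970 of 7535, against 2256 of 7535 in the main fit. Over the whole array 2256 calls became 1494 at an adjusted p under 0.01 and 1947 to 2817 with single arrays left out; the 6 lists, 21 calls, held 18 to 28. Calls across the array were 47.2% higher ones, and 54.5% with array weights and 55.0% without STK38 shRNA replicate 4. When the human reverse-strand controls (ACTB, GAPDH) were kept out of the background (17 control probe sets, 1.89 to 2.18), 8 member genes in place of 5 were above it on some array.

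Signs changed at results without a call. With array weights TRAF5 35238_at had 0.083, TNFRSF1A 0.078, LTBR -0.040 and LTA -0.0061, and with quantile normalization FAS 37644_s_at had -0.0018. With single arrays left out the ranges were -0.041 to 0.074 for FAS 37644_s_at, -0.30 to 0.088 for TRAF5 35238_at, -0.093 to 0.0097 for TRAF3, -0.11 to 0.093 for TNFRSF1A, -0.041 to 0.18 for LTBR, -0.020 to 0.14 for LTA, -0.070 to 0.0052 for TRAF6, -0.066 to 0.017 for NFKB2 and -0.13 to 0.035 for TNFRSF9. The causes were not tested.

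No pairing by replicate number was evident: the deviations of same-numbered arrays from their group means correlated at -0.21 to 0.19. Such correlations cannot settle whether same-numbered arrays were handled together. With the replicate number as a block 2159 probe sets were called, and CD70 remained the 1 member called. Signal over background limits the 7 measured members other than CD70 and TRAF5, since none of them exceeded background on all 10 arrays.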

Other observations

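CD70 and TNFSF9, the TNF family ligands called higher, are neighbours among the protein-coding genes of the RefSeq table, and TNFSF14, another ligand, lies on the other side of CD70. TNFSF14 was under background on all arrays (log2 level 1.52 ± 0.16 with the STK38 shRNA and 1.55 ± 0.036 without, SD, n = 5 each). TUBB4A, the next gene beyond TNFSF9, was bright in both groups at a probe set that may also match related tubulins, 8.92 ± 0.069 against 8.88 ± 0.052, with a difference of 0.041 (SE 0.058, limma adjusted p = 0.675). TRIP10, 4 genes beyond CD70 on the other side, was under background. The other 6 of the 10 protein-coding genes within 5 places of CD70 had no probe set of their own in the annotation used. This set was looked at because both ligands had risen, so it is a description with no test.

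Around LTB, LTA and TNF the detected neighbours gave no call either. NFKBIL1 had a difference of 0.075 (adjusted p = 0.626), PRRC2A of -0.31 (adjusted p = 0.213) and BAG6 of 0.25 (adjusted p = 0.176), each above background on all 10 arrays.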
